A study of Homo sapiens with 6 samples.

Results

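The 9 genes described here encode the transcription factor NRF2 (NFE2L2), its inhibitor KEAP1, and enzymes that NRF2 is known to activate. These enzymes act in glutathione, thioredoxin, quinone and haem metabolism. The genes were taken by gene symbol, and all 9 of 9 had a row among the 21494 genes of the count table. RNA-seq was available for 6 samples labelled as G361, a human melanoma cell line, and genome-wide expression in knockdown cells was compared with that in control cells. In the Control sh group (3 samples, labelled WT) the cells carried a control shRNA, and in the VprBP sh group (3 samples, labelled DCAF1 Knockdown) they carried an shRNA against DCAF1, the gene of VprBP. According to the study's methods, the shRNA was of a single sequence, was delivered by lentivirus and was kept by puromycin selection. The methods do not say whether clones were picked. The labels do not say whether the 3 samples of a group are separate cultures, and p-values therefore measure the spread between these samples, which may be technical.

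NRF2 is a basic leucine zipper factor that is held at a low level in unstressed cells, because KEAP1 binds it and hands it to the CUL3-RBX1 ubiquitin ligase. When oxidants or electrophiles modify KEAP1, NRF2 escapes degradation, pairs with a small MAF protein and binds antioxidant response elements (AREs) in its target genes. Its best known targets rebuild the reduced glutathione and thioredoxin pools, supply NADPH, and clear quinones, haem and iron. In many tumours the pathway is switched on permanently, and it then shields the cells from drugs and oxidative stress.

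To see whether the members share a sequence feature, the RefSeq promoter windows (GRCh38.p14, 250 bases before to 50 bases after a transcript start) were searched on both strands for the ARE core TGACNNNGC. Windows were found for 7 of the 9 members, 10 windows in all, and HMOX1 and GSR were not matched. The core occurred in 4 of the 10 windows, in GCLM, TXNRD1 and KEAP1, against 13.3% of all 35116 windows. The core followed by A occurred in 3 of the 10, once in each of the same genes, against 3.18% of all windows. These 3 sites are printed because they let the regulated genes be compared with KEAP1, the inhibitor, whose window holds the same 9 letters as that of GCLM. Each line reads 5′ to 3′ with the core in capitals.
GCLM: ctggaagacaaTGACTAAGCagaaatcgta
TXNRD1: cagagtcagaaTGACAAAGCagaaatccac
KEAP1: gcaggtcaccaTGACTAAGCagagccgggc
The GCLM site lies at chr1:93909445-93909474 (plus strand as printed), its core centred 30 bases before the transcript start, and that of TXNRD1 at chr12:104286920-104286949 (minus strand as printed), 98 bases before the start of its second window. The KEAP1 site lies at chr19:10502783-10502812 (plus strand as printed), 27 bases before the start of its second window. GCLM and KEAP1 share a run of 13 bases, and GCLM and TXNRD1 a run of 11 bases that begins in the core and runs past it. The AP-1 site TGANTCA, which resembles the ARE, occurred in none of the 10 windows, against 7.71% of all windows. These matches describe letters only, and no binding was measured here. Sequence further from a start was not searched, so a window without the core does not show that its gene lacks an ARE. Members were chosen as genes of the NRF2 pathway, so their share against all windows is a description and not a test.

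Total estimated counts per sample ran from 18195949 to 26883948. A count of 3, taken as the floor of detection, corresponded to 2.30 to 3.48 normalized counts, which covers counting error only. DCAF1 (ENSG00000145041.16) had 797, 971 and 838 normalized counts (counts scaled by upper quartile library sizes) in Control sh samples 1, 2 and 3 and 760, 507 and 481 in VprBP sh. Its log2 fold change was -0.58 (standard error, SE, 0.17, edgeR adjusted p = 0.0125), which is less than a 2-fold decrease, and with scaling by library size alone the groups overlapped (log2 fold change -0.37, edgeR adjusted p = 0.0851). DCAF1 overlaps RBM15B on the opposite strand, which had 1443 to 1551 counts in Control sh and 2178 to 3901 under knockdown, and counting by strand is not stated. The labels name G361 melanoma cells but give LD611 as the source, so marker genes were read out. Of 8 melanocyte markers 4 had a row, while SOX10, TYR, DCT and S100B had none. The summed level of the 4 was 8.46 to 9.85 CPM (counts scaled to the library total) for Control sh and 11.9 to 15.2 for VprBP sh. MLANA had at most 5 counts in any sample. Of 10 urothelial markers 8 had a row (KRT20 and UPK3A had none), with a summed level of 4328 to 4824 CPM for Control sh and 1235 to 1394 for VprBP sh. This sum is carried by KRT5 and KRT7, and single markers went both ways. TP63 had 7670 to 8806 counts in Control sh samples against 8 to 13 with the knockdown shRNA, whereas GATA3 had 0 to 7 against 1334 to 1873 and PPARG 227 to 300 against 628 to 978. UPK1B had 500 to 709 counts in Control sh against 0 in every VprBP sh sample, and UPK2 176 to 220 against 26 to 73. Of 6 fibroblast markers 4 had a row, at 32.1 to 33.6 CPM for Control sh and 22.5 to 29.4 for VprBP sh. The 2 groups thus differed in markers of cell identity. The low melanocyte levels and the high KRT5 and KRT7 levels go against the label of melanoma cells. These markers do not settle which tissue the cells come from. The mitochondrial share of counts lay between 1.96% and 1.98% for Control sh samples and between 4.10% and 4.48% for VprBP sh samples. Whether these differences play a part in any of the results given next was not tested.

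The 9 genes did not move in one direction. KEAP1 and HMOX1 rose more than 2-fold in VprBP sh, TXNRD1 fell more than 2-fold, GCLC rose and GSR and SRXN1 fell by just under 2-fold, and NFE2L2, GCLM and NQO1 changed by less than 1.5-fold. Calls required both a change of more than 2-fold and an edgeR quasi-likelihood p-value that stayed under 0.05 after adjustment. By this rule 2 of the 9 members were called higher, where 24.5% of all 16756 genes tested were, and 1 was called lower, where 22.0% of all genes were, so that 3 of 9 were called in either direction against 46.4%. Without the fold cutoff all 9 passed, but so did 76.4% of all genes. Of the 9, 4 were higher, against 40.4% of all genes, and 5 were lower, against 36.0%. Their 3 values per group did not overlap for any of the 9, and this held for 79.5% of all genes. It held for 8 of 9 under each of 3 other scalings, since NQO1 overlapped with TMM factors and with DESeq2, and GCLM with library size alone. The members were thus not called more often than genes at large. The median log2 fold change of the members was -0.35, against 0.08 for all genes tested, and the median of the absolute values was 0.96, against 0.92. In bulk samples, a lower level per cell and fewer cells that express a gene cannot be told apart.

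**Figure D1:**
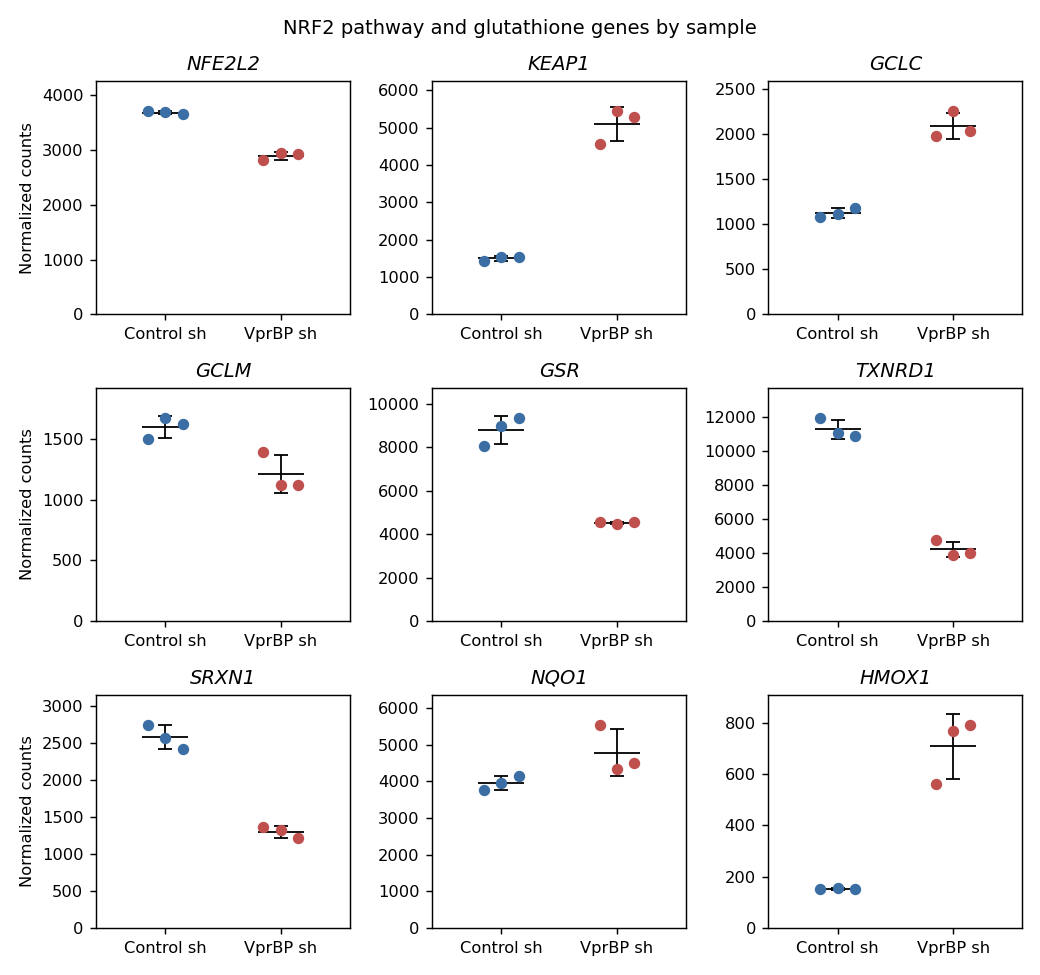
Normalized counts (counts scaled by upper quartile factors, y axes starting at 0) of each of the 9 genes in Control sh samples 1 to 3 (blue) and VprBP sh samples 1 to 3 (red), with the group mean and SD in black (n = 3). KEAP1 and HMOX1 sit far higher in VprBP sh, at means of 5095 and 707 against 1499 and 152, while TXNRD1 sits lower, at 4211 against 11269, and for NQO1 and GCLM the groups nearly touch.

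NRF2 itself and its inhibitor changed in opposite directions. NFE2L2 (ENSG00000116044.16, minus strand of chromosome 2 from 177227595 to 177392697) stood at 3704, 3686 and 3661 normalized counts in the Control sh samples and at 2816, 2940 and 2931 in VprBP sh. The samples of a group lay close together and every VprBP sh sample was lower. The log2 fold change was -0.35 (SE 0.07, edgeR adjusted p = 0.00141), and with library size alone it was no longer past the threshold (-0.14, edgeR adjusted p = 0.109). KEAP1 (ENSG00000079999.14, minus strand of chromosome 19 from 10486125 to 10503558), the substrate adaptor that presents NRF2 for ubiquitination, stood at 1425, 1525 and 1546 normalized counts in the Control sh samples and at 4570, 5431 and 5283 in VprBP sh. Each VprBP sh sample exceeded the highest Control sh sample by at least 2.96-fold. The log2 fold change was 1.77 (SE 0.09, edgeR adjusted p = 1.31e-07), a 3.40-fold rise.

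Because both counts come from the same library, the ratio of KEAP1 to NFE2L2 does not depend on how libraries are scaled. It was 0.385, 0.414 and 0.422 in Control sh and 1.62, 1.85 and 1.80 in VprBP sh. In every Control sh sample KEAP1 thus had fewer counts than NFE2L2, and in every VprBP sh sample it had more. The ratio was 4.32-fold higher in VprBP sh (exact two-sided permutation test p = 0.1, the smallest that 3 samples against 3 allow). These are ratios of counts, not of levels per length. By the merged exon lengths used below, KEAP1 was above NFE2L2 per kilobase in every Control sh sample too (399 to 433 against 244 to 247 normalized counts). NRF2 protein, the level of which KEAP1 controls, was not analysed here.

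Glutathione is made from glutamate, cysteine and glycine, and its first and limiting step is carried out by glutamate-cysteine ligase, a dimer of the catalytic subunit GCLC and the modifier subunit GCLM. GCLC (ENSG00000001084.13, minus strand of chromosome 6 from 53497341 to 53616970) stood at 1077, 1120 and 1181 normalized counts in the Control sh samples and at 1977, 2254 and 2036 in VprBP sh. All VprBP sh samples were higher, with a log2 fold change of 0.89 (SE 0.09, edgeR adjusted p = 9.69e-06), a 1.85-fold rise. GCLM (ENSG00000023909.10, minus strand of chromosome 1 from 93885199 to 93909456), which lowers the feedback inhibition of GCLC by glutathione, stood at 1499, 1670 and 1624 normalized counts in the Control sh samples and at 1393, 1117 and 1124 in VprBP sh. VprBP sh sample 1 lay within 1.08-fold of the lowest Control sh sample, and the log2 fold change was -0.40 (SE 0.11, edgeR adjusted p = 0.00685). With scaling by library size alone the GCLM groups overlapped (adjusted p = 0.15 from edgeR), and with samples 2 and 3 of each group summed into 1 the adjusted p was 0.0988.

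The 2 subunits thus went apart. The ratio of GCLM to GCLC counts was 1.39, 1.49 and 1.37 in Control sh and 0.705, 0.496 and 0.552 in VprBP sh. Modifier transcripts had more counts than catalytic ones in each Control sh sample and fewer in each VprBP sh sample. This holds for counts, not for levels per length. Per kilobase of exon, GCLM was still above GCLC in VprBP sh sample 1 (257 against 229 normalized counts). The ratio was 2.46-fold lower in VprBP sh (exact two-sided permutation test p = 0.1, again the smallest possible).

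**Figure D2:**
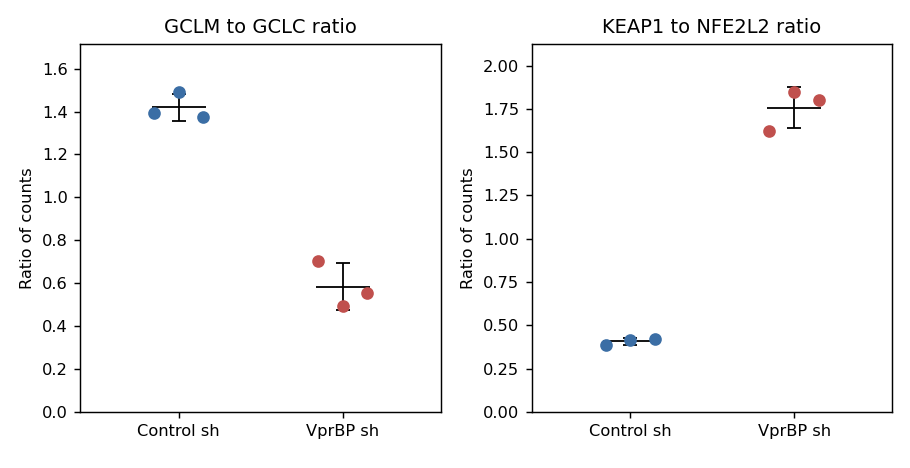
Ratio of GCLM to GCLC counts (left) and of KEAP1 to NFE2L2 counts (right) within each sample, Control sh in blue and VprBP sh in red, with the group mean and SD in black (n = 3, y axes starting at 0). The first ratio is above 1 in all Control sh samples and below 1 in all VprBP sh samples, and the second the reverse. These are ratios of counts, not of levels per length. Per kilobase of exon, KEAP1 is above NFE2L2 in all samples of both groups, and GCLM is above GCLC in VprBP sh sample 1.

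The 3 members that return oxidized thiols to their reduced form were all lower in VprBP sh. They passed the adjusted p threshold in this direction, as did 36.0% of all genes. GSR (ENSG00000104687.14, minus strand of chromosome 8 from 30678066 to 30727846), glutathione reductase, uses NADPH to turn glutathione disulphide back into glutathione. It stood at 8056, 8988 and 9325 normalized counts in the Control sh samples and at 4542, 4462 and 4566 in VprBP sh, for a log2 fold change of -0.96 (SE 0.08, edgeR adjusted p = 3.84e-06). The VprBP sh samples agree within 1.21% (SD over mean), and all lie far under the Control sh samples. TXNRD1 (ENSG00000198431.17, plus strand of chromosome 12 from 104215779 to 104350307), cytosolic thioredoxin reductase, does the same for thioredoxin. It stood at 11907, 11019 and 10880 normalized counts in the Control sh samples and at 4734, 3875 and 4025 in VprBP sh, for a log2 fold change of -1.42 (SE 0.10, edgeR adjusted p = 7.91e-07) and a 2.68-fold decrease. The other thioredoxin reductases, TXNRD2 and TXNRD3, did not fall (log2 fold changes 0.19 and 0.39, edgeR adjusted p = 0.103 and 0.0249). Both were chosen after their values were seen. SRXN1 (ENSG00000271303.2, minus strand of chromosome 20 from 646615 to 653200), sulfiredoxin, rescues peroxiredoxins that have been overoxidized. Its normalized counts were 2747, 2577 and 2419 in Control sh and 1370, 1324 and 1213 in VprBP sh, for a log2 fold change of -0.99 (SE 0.09, edgeR adjusted p = 4.81e-06).

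GSR and SRXN1 lie at the edge of the 2-fold cutoff, so that their calls, unlike their directions, turn with the scaling. Both were called lower with edgeR's TMM factors (log2 fold changes -1.06 and -1.09) and with DESeq2 (-1.08 and -1.11), which makes 3 members called lower in place of 1, against 23.5% and 23.8% of all genes. GSR was also called without Control sh sample 1 (21.8% of all genes lower). SRXN1 was also called without Control sh sample 3 (21.8%), VprBP sh sample 1 (23.0%) or VprBP sh sample 2 (22.8%), with no filter on low counts (22.3%) and with samples 2 and 3 summed (22.4%). GCLC was called higher with library size alone, where 29.2% of all genes were. When edgeR's glmTreat asked whether changes exceed 2-fold, KEAP1 and HMOX1 passed as higher and TXNRD1 as lower, against 18.7% of all genes each way, and GSR and SRXN1 did not pass (adjusted p = 0.822 and 0.613).

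Of the classic NRF2 targets, HMOX1 rose strongly, while the small difference in NQO1 depended on the processing. HMOX1 (ENSG00000100292.18, plus strand of chromosome 22 from 35380361 to 35394214), haem oxygenase-1, breaks haem into biliverdin, iron and carbon monoxide and is repressed by BACH1. It stood at 152, 155 and 150 normalized counts in the Control sh samples and at 562, 769 and 790 in VprBP sh. It was the most tightly spaced Control sh group but NFE2L2 and the most widely spread VprBP sh group of the 9, at 1.88% and 17.9% (SD over mean). Its log2 fold change of 2.22 (SE 0.15, edgeR adjusted p = 8.73e-07), a 4.64-fold rise, was the largest among the members and exceeded in size that of 77.4% of all genes tested. NQO1 (ENSG00000181019.13, minus strand of chromosome 16 from 69706996 to 69726668), a quinone reductase often used to read out NRF2 activity, stood at 3772, 3965 and 4144 normalized counts in the Control sh samples and at 5531, 4324 and 4494 in VprBP sh. VprBP sh sample 1 stood above the other two, and the gap between the groups was only 1.04-fold. The log2 fold change of 0.27 (SE 0.10, edgeR adjusted p = 0.0373) was no longer past the threshold in 9 of 14 alternatives, among them TMM (adjusted p = 0.151), DESeq2 (0.239), a replicate block (0.0811, where 8 of 9 members passed against 72.7% of all genes) and the fit without VprBP sh sample 1 (log2 fold change 0.15, adjusted p = 0.0559). Leaving out any of Control sh samples 1, 2 and 3 also lost it (adjusted p = 0.0988, 0.0971 and 0.0589). Over the alternatives, its log2 fold change ran from 0.15 to 0.48.

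**Figure D3:**
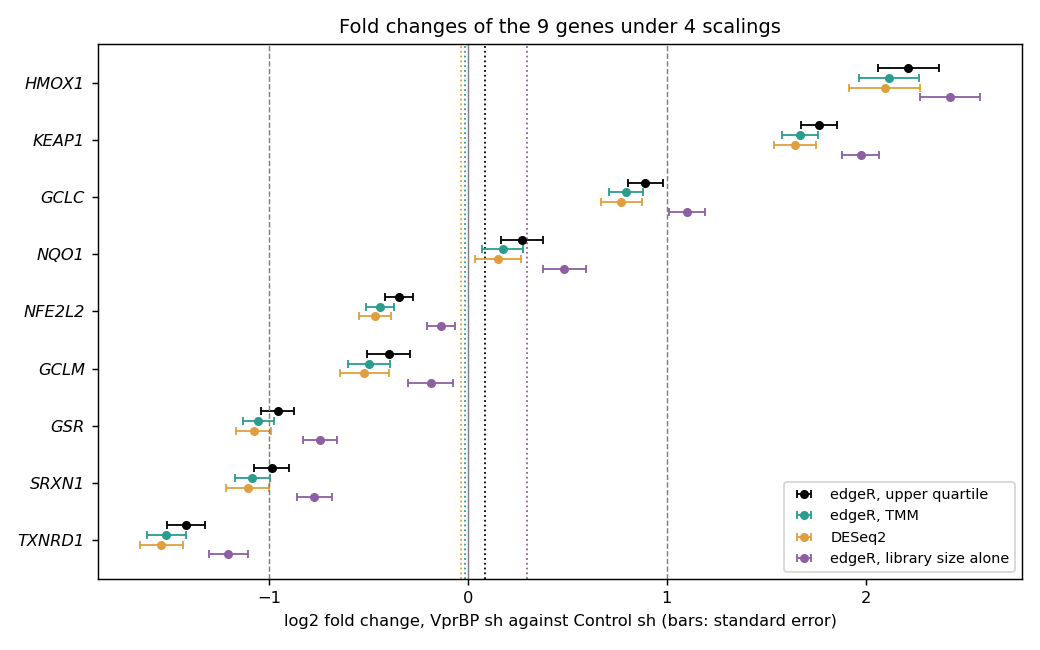
log2 fold change of the 9 genes in VprBP sh against Control sh (points, with standard errors as bars) under 4 scalings. Dotted lines mark the median of all genes (0.08 by upper quartile, -0.01 by TMM, -0.04 by DESeq2 and 0.29 by library size), and dashed lines a 2-fold change. Library size alone shifts all points to the right together with the median, and no gene changes sign.

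Per kilobase of merged exon length (GENCODE 44), the order of the members' levels changed between the groups. In Control sh it was GSR (2440 ± 183 normalized counts per kilobase, SD, n = 3), TXNRD1 (1679 ± 83), NQO1 (1333 ± 63), SRXN1 (1021 ± 65), KEAP1 (419 ± 18), GCLM (294 ± 16), NFE2L2 (246 ± 1.5), GCLC (131 ± 6.1) and HMOX1 (66.1 ± 1.2). No neighbours in this order overlapped. In VprBP sh it was NQO1 (1610 ± 220 normalized counts per kilobase), KEAP1 (1426 ± 129), GSR (1256 ± 15), TXNRD1 (628 ± 68), SRXN1 (515 ± 32), HMOX1 (307 ± 55), GCLC (242 ± 17), GCLM (223 ± 29) and NFE2L2 (193 ± 4.6). Here NQO1 overlapped KEAP1, HMOX1 overlapped GCLC, and GCLC overlapped GCLM. The 3 thiol reductases, GSR, TXNRD1 and SRXN1, thus held the first, the second and the fourth place in Control sh, and HMOX1 went from the last place to the middle of the order. The GENCODE 44 model of NFE2L2 is longer than the gene in the table, which lowers its level per kilobase in both groups alike. Merged length counts every annotated exon and was longest for NFE2L2 (14975 bases) and GCLC (8618 bases). Places in these orders therefore depend on the annotation, which the spread between samples does not cover.

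Overlapping genes in GENCODE 44 could add or take reads for 6 of the members. The genes that share the strand of a member had few counts where they had a row. A protein-coding gene that spans SRXN1 had at most 12 counts in any sample, and EID3, within TXNRD1, at most 7. RPL18AP3, a pseudogene within TXNRD1, ranged from 116 to 125 counts in Control sh and from 70 to 261 in VprBP sh. On the opposite strand within TXNRD1, ENSG00000257732 had 42 to 48 counts in Control sh and 0 in every VprBP sh sample. The counts of TXNRD1 were in all samples far above these.

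To set the members in their pathway, 5 lists of further genes were counted, 87 genes of which 86 had a row and 85 were tested. In total 19 of the 85 were called higher and 24 lower, where 24.5% and 22.0% of all genes were, and 76 of 85 did not overlap between groups (79.5% of all genes). The median log2 fold change was -0.28, against 0.08 for all genes tested. Only the NADPH-producing enzymes had a median above that of all genes.

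Of 13 regulators of the pathway, 1 was called higher and 5 lower, against 24.5% and 22.0% of all genes (median log2 fold change -0.42). CUL3, the scaffold of the ligase that KEAP1 serves, rose from 1099 ± 94 to 2814 ± 267 normalized counts (SD, n = 3; log2 fold change 1.36, edgeR adjusted p = 1.52e-06), in the same direction as KEAP1. BACH1, the haem-sensitive repressor that competes with NRF2 at AREs such as those of HMOX1, fell from 1415 ± 172 to 649 ± 16 (log2 fold change -1.12, edgeR adjusted p = 8.19e-06). MAFF, a small MAF partner, fell from 1010 ± 118 to 289 ± 23, and NFE2L1, the sister factor NRF1 that controls proteasome genes, from 10311 ± 412 to 2708 ± 36.

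Of 16 genes tested for glutathione supply and turnover, 5 were called higher and 5 lower, where the shares of all genes were 24.5% and 22.0% (median log2 fold change -0.35). SLC3A2, the heavy chain of the cystine importer, fell from 17036 ± 213 to 5715 ± 486 normalized counts (log2 fold change -1.58, edgeR adjusted p = 1.86e-07). Its partner SLC7A11, the transporter chain itself and an NRF2 target, fell from 702 ± 176 to 281 ± 11.9 (log2 fold change -1.32, edgeR adjusted p = 6.58e-05). CBS, the first enzyme of the route from homocysteine to cysteine, was near the floor in Control sh, at 9, 2 and 1 counts, and reached 515, 500 and 890 in VprBP sh. CNDP2, a dipeptidase that splits cysteinylglycine, rose from 420 ± 64 to 3583 ± 480 normalized counts, and CHAC2, which degrades glutathione, from 60.6 ± 24.5 to 240 ± 34. GGT1, which starts glutathione breakdown outside the cell and has close paralogs, fell from 154 ± 79 to 51.8 ± 17.3, and OPLAH, which opens 5-oxoproline to glutamate, from 130 ± 31 to 9.55 ± 4.72. GSS, the second enzyme of glutathione synthesis, had 1874 ± 37.7 and 2176 ± 48.2 normalized counts (log2 fold change 0.22). SLC7A11 and GSS were chosen after their values were seen.

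Of 20 peroxidases, thioredoxins and glutaredoxins tested, 1 was called higher (24.5% of all genes) and 5 lower (22.0%), with the median at -0.28 on the log2 scale. GPX1, the abundant cytosolic glutathione peroxidase, fell from 6449 ± 774 to 2494 ± 213 normalized counts, and GPX2, an epithelial form, from 138 ± 21 to 10.6 ± 1.7. PRDX2, a cytosolic peroxiredoxin, rose from 1544 ± 79 to 6330 ± 591 (log2 fold change 2.04, edgeR adjusted p = 6.25e-08). TXNIP, which binds and inhibits thioredoxin, went from 3277, 1622 and 1853 counts to 0 in each VprBP sh sample, which is at least 835-fold lower when set against 3 counts per sample.

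Of 10 NADPH-producing enzymes, 5 were called higher and 2 lower, against 24.5% and 22.0% of all genes (median log2 fold change 0.88). IDH2, the mitochondrial NADP-dependent isocitrate dehydrogenase, rose from 502 ± 37 to 4937 ± 509 normalized counts (log2 fold change 3.30, edgeR adjusted p = 7.81e-09). Of the pentose phosphate pathway, PGLS rose from 1043 ± 92 to 3369 ± 588 and PGD from 1745 ± 133 to 4753 ± 28, while TKT, which acts after the NADPH-yielding steps, fell from 17276 ± 34 to 8220 ± 545. ME1, malic enzyme, fell from 2527 ± 201 to 1048 ± 89 (log2 fold change -1.27, edgeR adjusted p = 1.81e-06).

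Of 26 other NRF2 targets, in detoxification, export and the handling of iron and haem, 7 were called higher (24.5% of all genes) and 7 lower (22.0%), with the median at -0.09 on the log2 scale. Both ferritin chains, which store the iron that haem oxygenase releases, fell while HMOX1 rose. FTL went from 19735 ± 703 to 3308 ± 660 normalized counts (log2 fold change -2.58, edgeR adjusted p = 1.97e-07) and FTH1 from 126300 ± 7166 to 47745 ± 3383, though reads of ferritin genes can be shared with their many pseudogenes. EPHX1, microsomal epoxide hydrolase, rose from 448 ± 36 to 6863 ± 691 (log2 fold change 3.94, edgeR adjusted p = 3.35e-09), and AKR1B10, an aldo-keto reductase, from 759 ± 49 to 2575 ± 212. UGT1A6, which shares exons with its neighbours in the UGT1A cluster, rose from 142 ± 64 to 1057 ± 36. ABCG2, a drug exporter, went from 267, 270 and 332 counts to 0 in each VprBP sh sample, which is at least 105-fold lower.

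**Figure D4:**
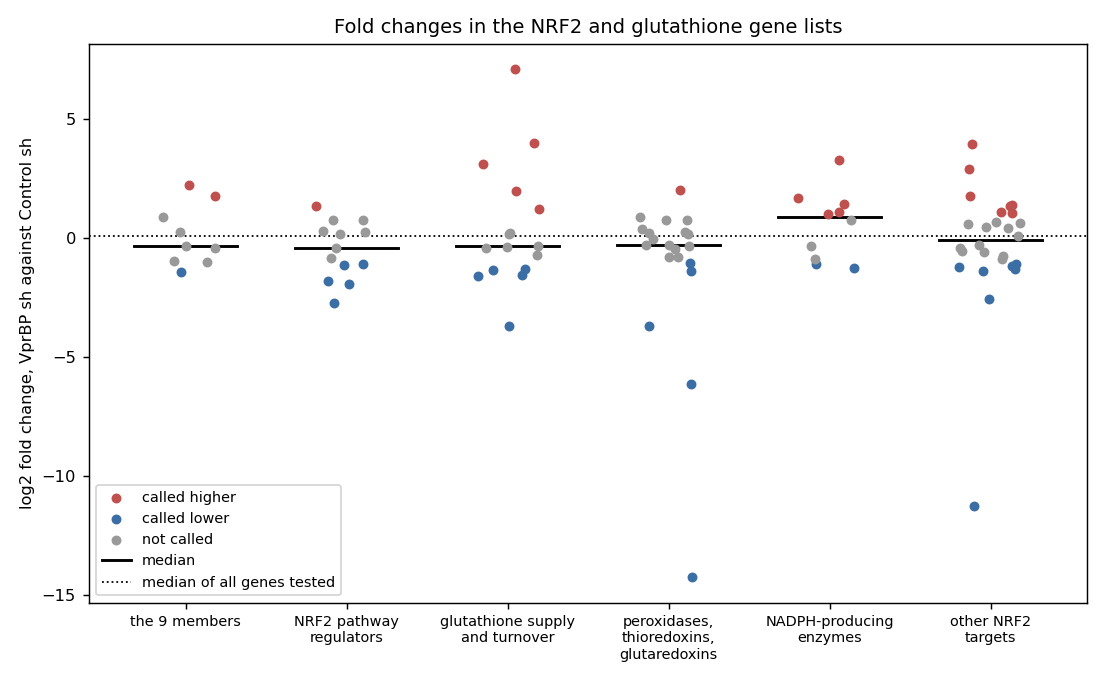
log2 fold change of each tested gene in VprBP sh against Control sh for the 9 members and the 5 lists, in red where called higher, blue where called lower and grey where not called. Black bars are list medians and the dotted line is the median of all genes tested (0.08). The NADPH-producing enzymes have a median of 0.88, and the other medians lie from -0.42 to -0.09. The 2 lowest points are TXNIP and ABCG2, whose fitted values depend on the prior count because VprBP sh has 0 counts.

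The members lie on 9 chromosomes, and the 5 tested genes on each side of each were read out to see whether a change was shared with its surroundings. Sides were set by gene start, so some of these genes lie within the member. ENSG00000257732 (called lower) and RPL18AP3 lie within TXNRD1, and ENSG00000213963 lies within NFE2L2. Around KEAP1, 8 of 10 neighbours within 253.9 kb were called higher and 1 lower, and their median was 1.95 on the log2 scale, close to the 1.77 of KEAP1 itself. The nearest gene on each side did not share its rise, with PDE4A at -3.56 and S1PR5 at -0.06 on the log2 scale. Among those that rose were CDC37, a partner of HSP90, which rose from 3959 ± 69 to 13931 ± 443 normalized counts, TYK2, a JAK kinase, from 1990 ± 18 to 9955 ± 1220, and AP1M2, an adaptor subunit of epithelial cells, from 2405 ± 33 to 9795 ± 1215. Around GCLC, 6 of 10 neighbours were called higher and 1 lower (median 1.09), over a much wider span of 3204.5 kb. The spans of the remaining members ran from 728.0 kb (NQO1) to 3641.2 kb (HMOX1). Of the other members, HMOX1 had 2 neighbours called higher and 1 lower (median 0.09), TXNRD1 had 1 and 4 (median 0.17), and NQO1 had 0 and 2 (median -0.38). GCLM had 3 and 4 (median 0.28), GSR had 3 and 4 (median -0.57), SRXN1 had 1 and 2 (median -0.53) and NFE2L2 had 1 and 4 (median -0.77). Of all genes 24.5% were called higher and 22.0% lower, and these counts were given no test. The neighbours named were chosen after their values were seen.

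**Figure D5:**
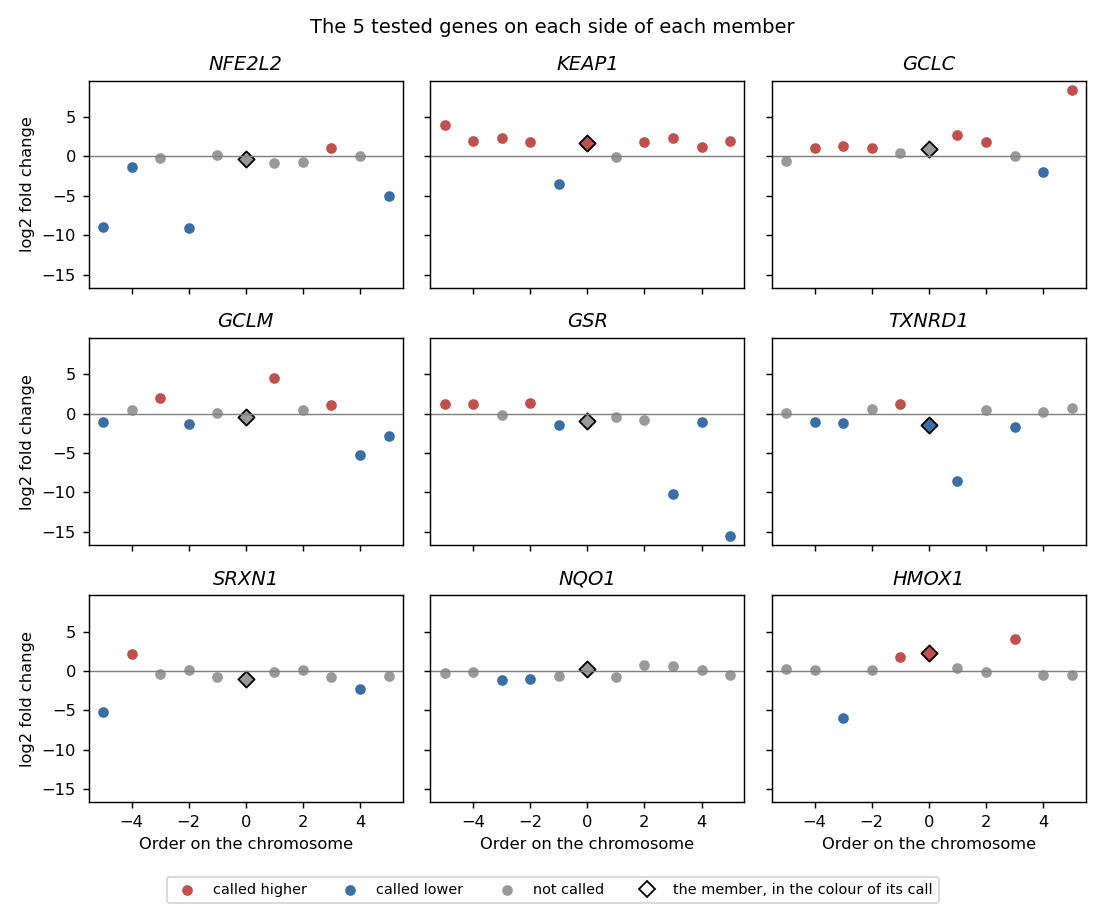
log2 fold change (VprBP sh against Control sh) of each member, as a diamond at position 0, and of the 5 tested genes on each side in chromosome order (x axis, order of gene starts only), coloured by call. Some of these genes lie within TXNRD1 or NFE2L2. Around KEAP1, 8 of the 10 neighbours are called higher, and around HMOX1 2 of 10. Values of genes with 0 counts in a group depend on the prior count.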

How the data were processed

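RNA-seq of 3 Control sh and 3 VprBP sh samples was analysed. The deposited values are estimated counts per gene and sample, neither normalized nor pooled (59.4% whole numbers), which the authors made from single-end reads with STAR (hg38) and Partek Flow. The study's methods name a strand-specific kit and the labels a SMARTER kit. Counts were rounded and tested in edgeR 4.0.16 (R 4.3.3), as a stand-in for Partek Flow's test, over all 6 samples with upper quartile factors (quantile 0.75) and a filter on low counts (minimum 10), which left 16756 genes. P-values were Benjamini-Hochberg adjusted, and standard errors are the log2 fold change over the square root of F. Normalized counts are counts divided by relative upper quartile library sizes. GENCODE 44 gave exon lengths and overlaps (93.4% of genes had its start and end). Alternatives used TMM, library size, DESeq2 1.42.0, limma-voom 3.58.1, other filters, a replicate block, glmTreat, left-out samples, and samples 2 and 3 summed. Deviations of same-numbered samples correlated at -0.173, -0.054 and -0.121, which shows no positive sharing by number. Such correlations cannot show whether samples were handled in pairs, and the labels do not say. Scripts were tested on simulated data. Members and lists were chosen with earlier results of these data known. From each list, the text names up to 3 increases and 3 decreases, taking the largest fold changes of called genes whose groups do not overlap and whose higher group averages 100 or more normalized counts.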

Additional observations from a re-analysis of the deposited data

How the results depend on the processing

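No result changed direction under any alternative run. The number of members called lower was 1 in the reported fit, 3 with TMM factors and 3 with DESeq2, 2 with no filter on low counts and 2 with samples 2 and 3 of each group summed, and it ran from 1 to 2 when a sample was left out, because GSR and SRXN1 lie at the edge of 2-fold. Members called higher numbered 2 in every alternative but library size alone, where GCLC passed the fold cutoff too (log2 fold change 1.10) and made 3. With the replicate number as a block, 8 of the 9 members had an adjusted p-value under 0.05, NQO1 being lost, and 18 genes of the pathway lists were called higher and 24 lower. The block changed no call of a member. The labels state no pairing that the block would stand for, and deviations of same-numbered samples did not correlate positively. With library size alone the transcriptome-wide median moved from 0.08 to 0.29 (log2), and GCLM and NFE2L2 were no longer past the adjusted p-value (0.15 and 0.109 from edgeR). Depth did not limit the members, each of which had at least 131 counts in every sample.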
